A study of Triticum aestivum with 16 samples.

Results

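The probe sets described here were those of the 10 largest clusters of the wheat array, the clusters that hold the most probe sets under 1 cluster number. The first number in an identifier such as Ta.27657.11.S1_x_at names the cluster of related wheat sequences, and the next number names the sequence within it. Probe sets were counted per cluster number, the 10 clusters with the most were taken, and ties were settled by the lower number. No expression value entered this choice. It gave 170 probe sets of the 61115 wheat probe sets on the array, of which 31438 carry such a cluster number, in 20031 clusters. Ta.10329 held 39 probe sets, Ta.7378 held 38, Ta.24114 held 17, Ta.28553 held 15, Ta.27657 held 14 and Ta.23807 held 13. Ta.23142 and Ta.27751 held 9 each, and Ta.659 and Ta.3523 held 8 each. A further 3 clusters with 8 probe sets fell outside by their higher numbers.

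The arrays measured RNA from field-grown bread wheat (Triticum aestivum) of 8 recombinant inbred lines, SB3, SB10, SB57, SB62, SB69, SB109, SB165 and SB169, which are inbred progeny of a cross of Seri M82 with Babax. Each line had 2 arrays, from separate field replicates of a rain-fed trial, which makes 16 arrays. A sample was a pool of stem tops from main tillers of a plot, with the peduncle, the internode below it and the attached leaf sheath, collected at anthesis while the soil was wet after heavy rain. No line was treated and no line is labelled as a control, so the lines were compared with one another.

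Bread wheat is a hexaploid with subgenomes A, B and D, so most of its genes exist as closely similar copies, and gene families multiply these copies further. A probe set whose identifier ends in _x_at, _s_at or _a_at holds probes that also match other transcripts, so probe sets of the same cluster can report overlapping sets of copies. Core histones package DNA into nucleosomes, and the bulk of their transcripts, which are polyadenylated in plants, is made while cells copy their DNA. Gliadins are storage proteins of the grain, and elongation factor 1-alpha brings aminoacyl-tRNA to the ribosome in every cell.

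A platform annotation paired 25 of the 170 probe sets with a gene, and the other 145 had no gene in the tables used here. In Ta.7378, 7 probe sets were paired with wcH2B-8 (LOC543184), a gene of the core histone H2B. In Ta.27657, 6 were paired with H2A-9 (LOC732714), a gene of the core histone H2A. In Ta.24114, 3 were paired with gliadin genes of the gli-2 group (LOC543210, LOC543212 and LOC543385), 4 with LOC543484 and 2 with LOC100037526. In Ta.659, 2 were paired with TEF1 (LOC543386), which encodes elongation factor 1-alpha. Ta.23807.1.S1_x_at was paired with LOC542817. LOC543484, LOC100037526 and LOC542817 carry no descriptive name, and the pairing of some probe sets does not identify the rest of a cluster.

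Replicate arrays correlated at r = 0.984 to 0.995 over all wheat probe sets, and array medians lay between 23.56 and 25.01 intensity units. The replicates of SB3 (0.984) and of SB165 (0.987) were the least alike. The 3′ minus 5′ difference of the ubiquitin control probe sets, a sign of RNA integrity, was -0.96 log2 units on SB3 replicate 1 and -1.39 on replicate 2, against -1.42 to -1.09 on the 14 arrays of the other lines. The same difference of the elongation factor 1-alpha control probe sets was -0.28 and 0.66 in SB10, -0.48 and 0.20 in SB165 and 0.39 and -0.27 in SB3, and it lay between -0.30 and 0.54 on the 10 arrays of the other lines. For the actin and gapdh controls, SB3 and SB165 lay within the range of the other lines, -2.18 to -1.37 and -3.02 to -2.35. For sucrose synthase the difference was 4.03 and 4.52 in SB3 and 4.15 and 4.92 in SB165, with 4.09 to 4.93 elsewhere. Counts of calls are also given without arrays of SB165 and SB3. Leaving out several of these arrays together was chosen after the values of the clusters were seen.

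Levels, as the mean log2 intensity over the 16 arrays, differed widely between and within the clusters. The median of the 170 probe sets was 6.95, against 4.61 for all wheat probe sets, and 79.4% of them lay above the latter. The brightest cluster by its brightest member was Ta.27751, where Ta.27751.2.S1_x_at averaged 13.69, although Ta.27751.5.S1_at of the same cluster averaged 4.85. In Ta.659, all 8 probe sets lay between 10.96 and 13.09, with the TEF1 probe sets at 12.56 (Ta.659.2.S1_x_at) and 11.76 (Ta.659.3.S1_x_at). All 15 probe sets of Ta.28553 lay between 9.42 and 12.57. Levels of different probe sets depend on their probes, so these values place a probe set on the array and do not rank transcripts.

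Ta.24114, where 3 of 17 probe sets are paired with gliadin genes, was dim in the stems. Its median level was 3.14, and 13 of its 17 probe sets lay below the median of the array. The 3 probe sets paired with gliadin genes averaged 3.14 (Ta.24114.1.S1_x_at), 2.08 (Ta.24114.10.S1_x_at) and 2.22 (Ta.24114.15.A1_x_at), at the 21.9th, 0.178th and 1.24th percentile of all levels. Ta.24114.13.S1_at, which has no gene here, averaged 11.49 in the same cluster, at the 99.4th percentile, and the next brightest member averaged 4.91. A similar split was seen in Ta.23142, with a median of 2.90 and 1 bright member, Ta.23142.9.S1_at, at 8.81. The 39 probe sets of Ta.10329 spread from 2.26 to 10.33 and the 38 of the H2B-holding Ta.7378 from 3.07 to 9.95, so that a cluster number alone said little about a level.

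**Figure D1:**
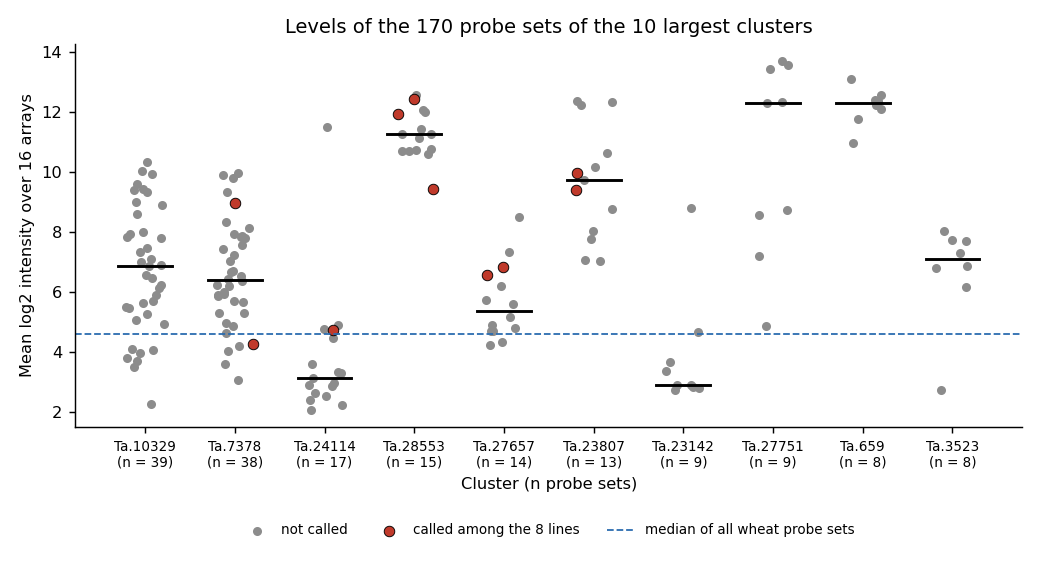
Each point is 1 of the 170 probe sets, placed by cluster on the x axis and by its mean log2 intensity over 16 arrays on the y axis. Black lines are cluster medians, the dashed line is the median of all wheat probe sets (4.61), and red points are the 10 probe sets that differed among the lines. Ta.24114 and Ta.23142 are dim apart from 1 bright member each.

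Agreement between probe sets of the same cluster was described by the Pearson correlation of their log2 values over the 16 arrays. All pairs share the same arrays, and probe sets with overlapping probes share signal. Over the 1982 within-cluster pairs of the 10 clusters the median r was 0.58, with 21.5% of pairs over 0.9 and 19.7% below 0. Most of these pairs came from Ta.10329 (741) and Ta.7378 (703), and 91 came from Ta.27657. The 447 pairs of the other 7 of the 10 clusters had a median r of 0.16, with 2.46% over 0.9 and 36.7% below 0. Pairs of members from different clusters had a median r of 0.11 (12383 pairs). Within-cluster pairs of the array's other clusters had a median r of 0.41 (19190 pairs), and where both probe sets were above the median level the medians were 0.64 in the 10 clusters and 0.62 elsewhere. Leaving out SB165 replicate 2, both SB10 arrays and SB3 replicate 2 lowered the median of the 10 clusters to 0.31. Pairs of the same sequence number had a median r of 0.92 (37 pairs), against 0.57 for pairs of different sequence numbers.

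Clusters differed in how closely their probe sets moved together. Ta.27657, which holds H2A-9, had a median r of 0.94 over its 91 pairs, Ta.7378 (H2B) 0.78 over 703 pairs, Ta.659 (elongation factor 1-alpha) 0.72 over 28 pairs and Ta.10329 0.60 over 741 pairs. The median r was 0.30 in Ta.23807, 0.20 in Ta.28553, 0.05 in Ta.24114, 0.04 in Ta.3523, 0.02 in Ta.23142 and -0.21 in Ta.27751. Without the 4 arrays of SB165 and SB3 the median was 0.92 in Ta.27657, 0.67 in Ta.7378, 0.61 in Ta.659 and 0.54 in Ta.10329. In Ta.659 this agreement concerned small differences, since the mean of its 8 probe sets spanned only 0.47 log2 units over the arrays.

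**Figure D2:**
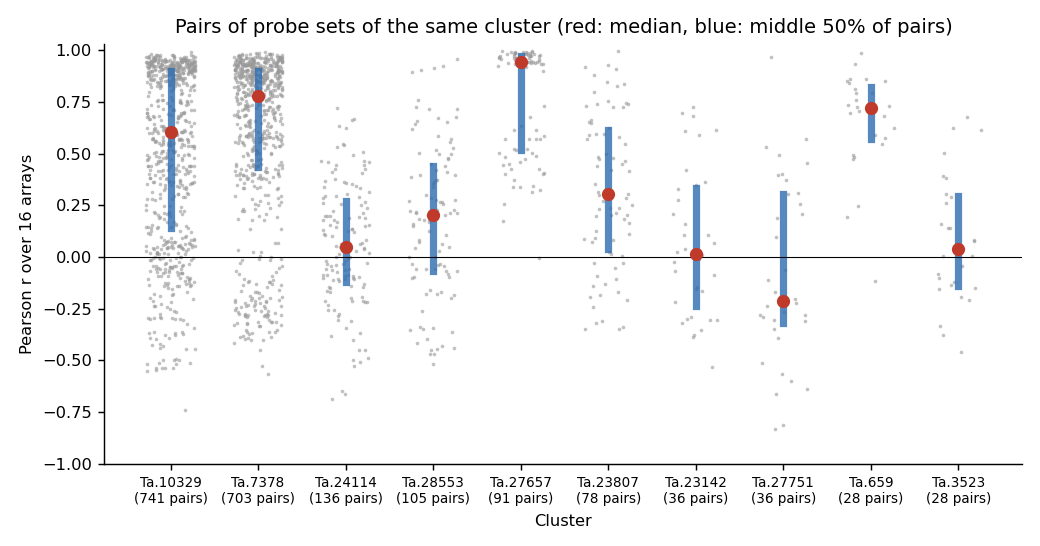
Each grey point is the Pearson r of 1 pair of probe sets of the same cluster over the 16 arrays, by cluster on the x axis. Red points are medians and blue bars hold the middle 50% of pairs. The medians run from -0.21 in Ta.27751 to 0.94 in Ta.27657, and Ta.10329 and Ta.7378 have many pairs near 1 beside pairs below 0.

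The means of 3 clusters spanned most over the arrays (4.24 log2 units in Ta.27657, 1.98 in Ta.7378 and 1.78 in Ta.10329). In these, the probe sets that moved together had a lower median level than those that did not. In Ta.7378, 22 of the 38 probe sets correlated at over 0.9 with the mean of their cluster mates, and their median level was 6.10. The 6 that correlated at under 0.5 had a median level of 9.57. Ta.7378.19.S1_at, chosen after its values were seen, lay between 9.66 and 9.99 on every array, with a mean of 9.79, and had r = -0.23 with the mean of the others. In Ta.10329, 23 of 39 correlated at over 0.9 (median level 6.24) and 9 at under 0.5 (median level 8.01). In Ta.27657, 11 of 14 correlated at over 0.9. The exceptions at under 0.5 were Ta.27657.3.S1_at, the brightest of the cluster at 8.50, which lay between 8.27 and 8.66 on every array, and Ta.27657.11.S1_x_at, described below.

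The 13 probe sets paired with H2A-9 or wcH2B-8 were described by the arrays that stood above the 8 arrays of SB169, SB62, SB69 and SB57. In all 6 of H2A-9, both arrays of SB10 and of SB109 and replicate 2 of SB3 and of SB165 lay above those 8 arrays, and in wcH2B-8 this held for 3 of 7. This division of the arrays was drawn after the values were seen, and how many of all wheat probe sets show it was not counted. None of the 13 was called among the 8 lines (0 of 13, limma adjusted p of 0.218 to 0.783), where 3.99% of all wheat probe sets were. An unadjusted p under 0.05 was reached by 7 of the 13, where 15.2% of all wheat probe sets reached it. The 2 shown array by array were chosen after their values were seen. Ta.27657.14.S1_x_at, paired with H2A-9, read 8.63 on SB3 replicate 2 but 3.61 on SB3 replicate 1, and 6.70 on SB165 replicate 2 but 3.68 on SB165 replicate 1. The same probe set read 5.32 and 7.70 in SB10, 6.05 and 5.91 in SB109, 3.24 and 3.36 in SB169, 3.29 and 3.63 in SB62, 3.80 and 3.75 in SB69, and 3.30 and 3.02 in SB57. Both arrays of SB10 and SB109 and replicate 2 of SB3 and SB165 were thus above every other array, and replicate 1 of SB3 and of SB165 lay among the low lines. With all 16 arrays the lines did not pass the test for this probe set (limma adjusted p = 0.301).

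On the H2B probe set Ta.7378.18.S1_at the same 6 arrays were the highest. It read 4.26 and 7.85 in SB3, 3.50 and 6.18 in SB165, 5.02 and 6.99 in SB10 and 5.63 and 5.35 in SB109. It read 3.44 and 3.51 in SB169, 3.46 and 3.51 in SB62, 3.85 and 4.18 in SB69 and 4.04 and 3.45 in SB57. The lines did not pass the test here either (limma adjusted p = 0.300). SB3 replicate 1, at 4.26, also lay above the 8 arrays of SB169, SB62, SB69 and SB57. Other probe sets of wcH2B-8 differed from this. Ta.7378.1.S1_at read 5.69 and 5.69 in SB109 and 5.69 on SB10 replicate 1, below 5.96 and 6.16 in SB62 and 5.88 and 5.87 in SB169. On Ta.7378.17.S1_x_at, SB109 replicate 2, at 3.03, lay below SB57 replicate 1, at 3.08. These 2 were also chosen after their values were seen.

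Averaged over each cluster's probe sets, the same arrays stood out. The Ta.27657 mean was 5.44 and 8.60 in SB3, 5.17 and 6.98 in SB165, 6.50 and 7.87 in SB10 and 6.17 and 6.20 in SB109, against 4.36 to 5.15 on the 8 arrays of the other 4 lines. The Ta.7378 mean was 6.34 and 7.99 in SB3, 6.15 and 7.05 in SB165 and 6.74 and 7.53 in SB10, and the Ta.10329 mean was 6.52 and 8.05, 6.49 and 7.11, and 6.83 and 7.56 in these lines. In SB3, 13 of the 14 probe sets of Ta.27657, 37 of the 38 of Ta.7378 and 34 of the 39 of Ta.10329 were higher on replicate 2, by a mean of 3.16 (8.91-fold), 1.65 (3.13-fold) and 1.54 log2 units (2.90-fold). In SB165 replicate 2 was higher by 1.80, 0.90 and 0.63. The share of all wheat probe sets that were higher on replicate 2 was not counted for either line. Probe sets with overlapping probes share signal, so members of a cluster are not independent here. Replicates of SB169, SB62, SB109, SB69 and SB57 differed by at most 0.10 in the mean of Ta.27657, 0.14 in Ta.7378 and 0.18 in Ta.10329. Between the stems of different plots, fewer cells that make histone transcripts and less of these transcripts per cell cannot be told apart. Whether the differences in replicate similarity and in the 3′ minus 5′ values of ubiquitin and elongation factor 1-alpha given above play a part in these results was not tested.

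**Figure D3:**
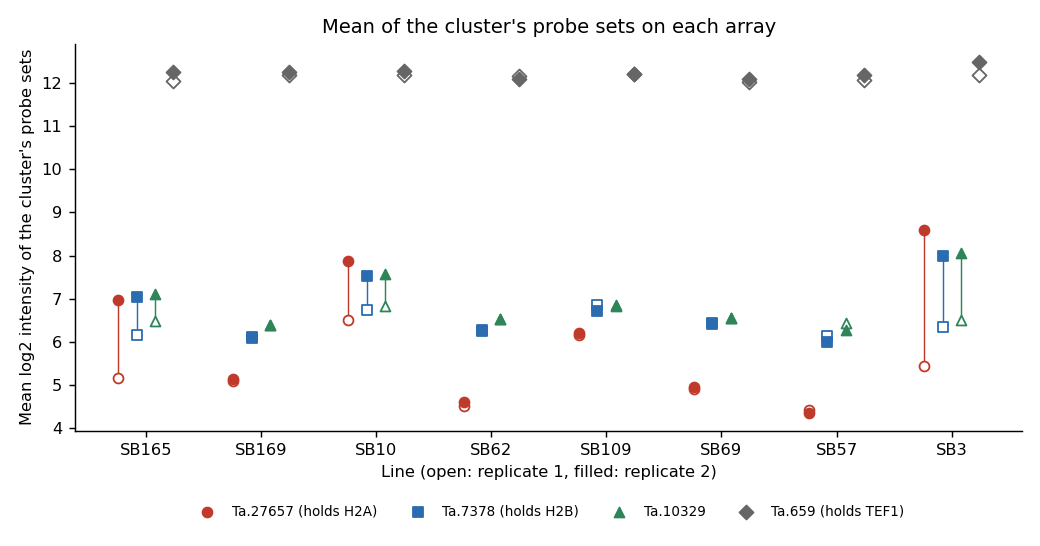
The y axis is the mean log2 intensity of all probe sets of a cluster on 1 array, by line on the x axis, for Ta.27657 (circles), Ta.7378 (squares), Ta.10329 (triangles) and Ta.659 (diamonds). Open symbols are replicate 1 and filled symbols replicate 2, joined by a line. Replicate 2 of SB3, SB165 and SB10 lies above replicate 1 in the first 3 clusters, and Ta.659 stays between 12.02 and 12.49.

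The means of Ta.10329 and Ta.7378 correlated at r = 0.99 over the 16 arrays (Spearman's rho 0.98), those of Ta.7378 and Ta.27657 at 0.96 (rho 0.81) and those of Ta.10329 and Ta.27657 at 0.95 (rho 0.77). Without SB165 replicate 2, both SB10 arrays and SB3 replicate 2, 12 arrays were left and the values were 0.96, 0.80 and 0.79. The Ta.7378 and Ta.23807 means correlated at 0.87 over 16 arrays and at 0.36 over these 12. The points share arrays and their normalization. Single probe sets of the first 3 clusters, taken in pairs across clusters, had a median r of 0.73 (2560 pairs), and all other pairs across clusters had a median of 0.01 (9823 pairs).

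Of the 170 probe sets, 10 differed among the 8 lines at an adjusted p under 0.05 (5.88%), where limma's moderated F-test called 3.99% of all 61115 wheat probe sets. The share of all includes 29677 probe sets without such a cluster number, which could not enter the 10 clusters and of which 2.07% were called. Among probe sets alone in their cluster 5.45% were called, and among those with mates outside the 10 clusters 6.10%, so 5.88% was no excess over these. At an unadjusted p under 0.05 the shares were 25.3% of the 170 and 15.2% of all. The 10 were 3 of Ta.28553, 2 each of Ta.7378, Ta.27657 and Ta.23807 and 1 of Ta.24114. None was called in Ta.10329 (2 at an unadjusted p under 0.05), Ta.23142 (3), Ta.27751 (1), Ta.659 (0) or Ta.3523 (0). Line means of 7 of the 10 spanned at least 2-fold. Among probe sets above the median level of the array, tested alone, 9 of 135 members were called, where 6.3% of all were. With the 3 suffixes of shared probes (_x_at, _s_at, _a_at) left out, 3 of 62 members were called, where 3.73% of all were.

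The widest called difference was in the H2A-holding cluster. Ta.27657.11.S1_x_at, itself without a gene here, read 9.46 and 8.97 in SB165, 9.21 and 9.67 in SB169, 9.73 and 9.52 in SB10 and 9.55 and 9.06 in SB3. It read 3.71 and 3.89 in SB62, 4.94 and 4.17 in SB109, 6.41 and 4.07 in SB69 and 3.56 and 3.54 in SB57. SB165, SB169, SB10 and SB3 were high on both arrays, with no overlap with the other 4 lines, and SB69 had the widest replicates. From SB57 (3.55 ± 0.01, SD, n = 2) to SB10 (9.62 ± 0.15, SD, n = 2) the line means spanned 67.5-fold (limma adjusted p = 3.86e-07).

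Ta.27657.2.S1_x_at split the lines in the same way. It read 6.66 and 7.26 in SB165, 7.32 and 7.95 in SB169, 7.84 and 8.45 in SB10 and 7.87 and 8.61 in SB3, against 5.08 and 5.34 in SB62, 5.82 and 6.03 in SB109, 5.88 and 5.45 in SB69 and 4.92 and 4.76 in SB57. The first 4 lines again lay above the others on both arrays. The span from SB57 to SB3 was 10.5-fold (limma adjusted p = 2.50e-06). SB169, high in both of these probe sets, lay below SB109, low in both, on the H2A-9 probe set Ta.27657.14.S1_x_at.

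In Ta.23807 a single line stood apart. Ta.23807.4.S1_s_at read 7.71 and 7.95 in SB169 and between 9.86 and 10.59 on the 14 arrays of the other lines. The 2 SB169 arrays lay below all others, and the span from SB169 (7.83 ± 0.17, SD, n = 2) to SB3 (10.49 ± 0.14, SD, n = 2) was 6.32-fold (limma adjusted p = 5.22e-07). Ta.23807.4.S1_x_at, built for the same sequence, read 8.77 and 8.39 in SB169 and between 9.20 and 9.80 elsewhere. Its span from SB169 to SB3 was 2.22-fold (limma adjusted p = 0.0021).

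Wider spans in Ta.23807 did not pass the test. Ta.23807.3.S1_a_at read 7.85 and 11.56 in SB3, 7.70 and 9.52 in SB165, 8.71 and 10.22 in SB10, 9.07 and 8.61 in SB109, 5.81 and 7.47 in SB169, 5.94 and 4.99 in SB62, 6.08 and 7.47 in SB69 and 6.37 and 7.15 in SB57. Its line means spanned 18.9-fold with replicates of SB3 that lay 3.71 log2 units apart (limma adjusted p = 0.064). Ta.23807.2.S1_s_at spanned 11.6-fold with SB3 replicates 3.44 units apart (limma adjusted p = 0.0675). These 2 probe sets were chosen after their values were seen.

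Ta.28553, a bright cluster with no gene here, held a split of the lines that differed from that in Ta.27657. Ta.28553.4.S1_x_at read 9.84 and 9.92 in SB165, 9.78 and 9.79 in SB62 and 9.85 and 9.89 in SB109, and it was highest in SB57, at a line mean of 10.03 ± 0.04 (SD, n = 2). It read 9.08 and 8.97 in SB169, 9.06 and 8.83 in SB10, 8.89 and 9.01 in SB69 and 8.99 and 8.75 in SB3. The lines fell on 2 levels with no overlap, and the span was 2.23-fold (limma adjusted p = 6.99e-06). Ta.28553.7.S1_at ranged from 11.48 (SB57) to 12.32 (SB165), with a 1.62-fold span of line means from SB62 to SB165 (limma adjusted p = 0.0127), and was no longer called without SB62 replicate 1 (0.0531). Ta.28553.7.S1_x_at spanned 1.35-fold (limma adjusted p = 0.0335) and was no longer called in 12 of 21 alternative fits, including those without either SB169, SB10, SB62 or SB69 array.

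In the H2B-holding cluster, Ta.7378.36.S1_x_at read 5.28 and 5.28 in SB109 and between 3.70 and 4.67 on the 14 arrays of the other lines. Its span from SB57 to SB109 was 2.75-fold (limma adjusted p = 0.0157), and it was no longer called without either SB109 array, with adjusted p values of up to 0.111. Ta.7378.20.S1_x_at read 9.33 and 9.44 in SB3, 9.23 and 9.40 in SB10, 8.83 and 8.61 in SB109 and between 8.74 and 9.04 on the other 10 arrays. SB3 and SB10 lay above all other lines, by a 1.58-fold span to SB109 (limma adjusted p = 0.0305), and the call was lost in 10 of 21 alternative fits, including that without SB3 replicate 2.

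In the gliadin-holding cluster the called probe set was Ta.24114.7.A1_at, paired with LOC100037526. It read 5.38 and 5.13 in SB109, 5.25 and 4.78 in SB10, 4.78 and 5.05 in SB169, 4.82 and 4.94 in SB69, 4.74 and 4.70 in SB165, 4.43 and 4.73 in SB57, 4.39 and 4.35 in SB62 and 4.17 and 4.17 in SB3. SB3 was lowest on both arrays, and the span from SB3 to SB109 was 2.13-fold (limma adjusted p = 0.0136). Ta.24114.7.S1_a_at, named for the opposite strand of the same sequence and paired with the same locus, was chosen for that pairing. It lay between 4.49 and 5.10 on every array (limma adjusted p = 0.763).

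**Figure D4:**
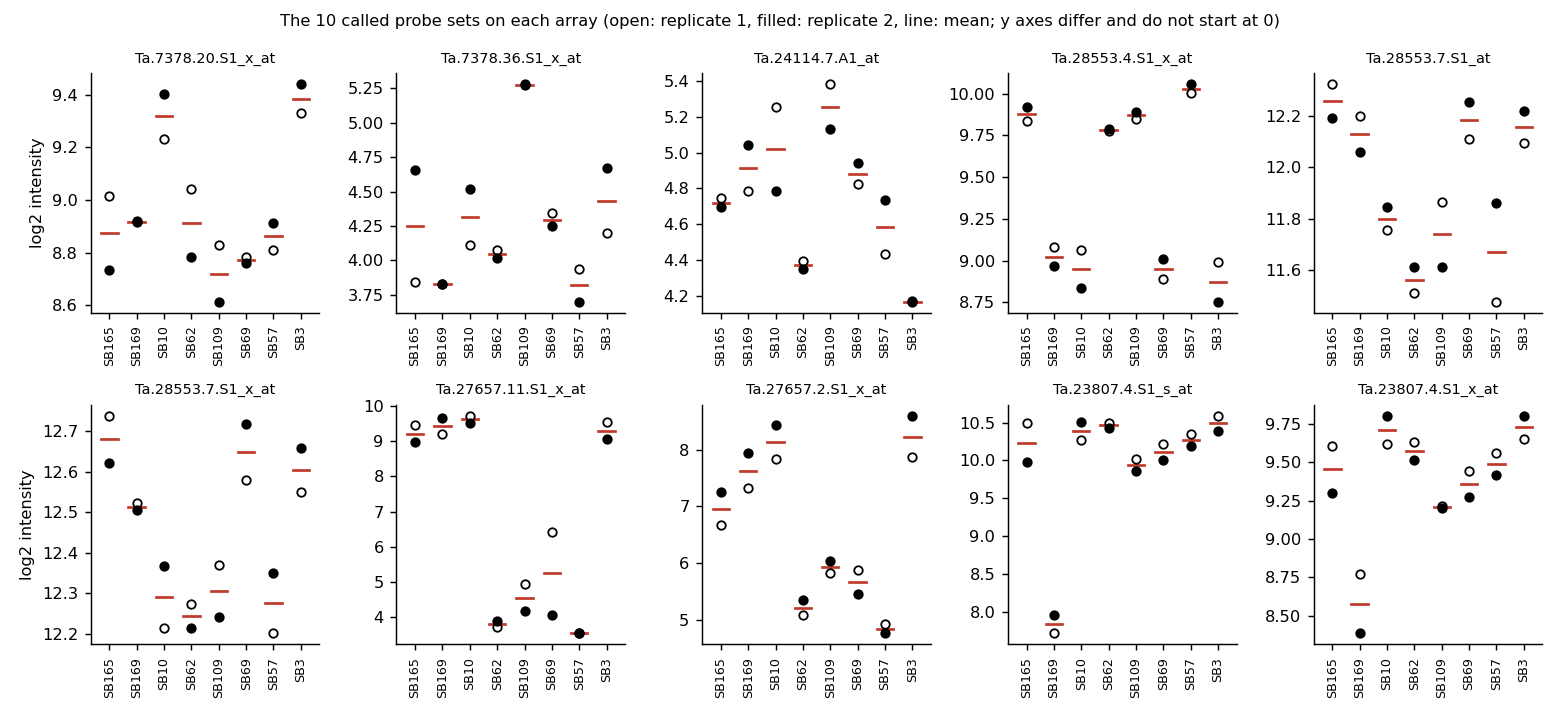
Each panel shows 1 of the 10 probe sets called among the lines, with log2 intensity on the y axis (axes differ and do not start at 0) and the line on the x axis. Open points are replicate 1, filled points replicate 2, and red bars line means (n = 2). Ta.27657.11.S1_x_at and Ta.27657.2.S1_x_at are high in SB165, SB169, SB10 and SB3, and Ta.23807.4.S1_s_at is low in SB169 alone.

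More probe sets of Ta.27657, Ta.7378 and Ta.10329 were called once the 2 lines with the least alike replicates were set aside. Without the 4 arrays of SB165 and SB3, 64 of the 170 probe sets differed among the other 6 lines, where 7.08% of all wheat probe sets did. They were 13 of 14 in Ta.27657, 21 of 38 in Ta.7378 and 18 of 39 in Ta.10329. All 13 of Ta.27657 and all 18 of Ta.10329 were highest in SB10, as were 18 of the 21 of Ta.7378, where 2 were highest in SB109 and 1 in SB69. The share of all called wheat probe sets that were highest in SB10 was not counted. Members of a cluster share signal, so these counts are not independent observations. The median span of the called probe sets was 9.86-fold in Ta.27657, 2.75-fold in Ta.7378 and 2.46-fold in Ta.10329. Ta.27657.14.S1_x_at spanned 10.2-fold from SB57 to SB10 (limma adjusted p = 0.000194), and Ta.7378.18.S1_at 5.78-fold from SB169 to SB10 (limma adjusted p = 0.00101).

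These 2 lines were set aside after the spread of their replicates was seen, which lowers the estimated spread, so the 6-line values are no independent evidence. The fits named next keep a single array of SB3, or of SB3 and of SB165, and that array alone stands for its line. SB3 replicate 2 was the highest array in the Ta.27657 mean, at 8.60, against 5.44 on replicate 1. Replicate 2 of both lines was left out together because it was high in the H2A- and H2B-holding clusters. Leaving out SB3 replicate 1 alone gave 73 of 170 calls, where 6.51% of all were called, and leaving out SB3 replicate 2 alone gave 26, where 4.2% were. Without replicate 2 of both SB165 and SB3, 50 were called, where 6.08% of all were. All 10 probe sets called with 16 arrays were also called in the 6-line fit.

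Whether a probe set differed among lines in another way than its cluster mates was asked of its log2 value minus the mean of its mates on the same array. Of the 170 probe sets 15 passed this test (8.82%), where 4.9% of the 11353 probe sets in clusters of at least 3 did. Ta.23807 held 6 of them, Ta.28553 held 4, Ta.27657 held 3, and Ta.7378 and Ta.24114 held 1 each. The count includes 6 of the 10 called above. The share was 8.85% in clusters of 6 to 7 probe sets. With 1 array left out in turn the count ranged from 7 to 61. It was 61 without SB3 replicate 1, where 7.08% of the 11353 passed, 28 without SB3 replicate 2, where 4.99% did, and 70 without the 4 arrays of SB165 and SB3, where 7.43% did.

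Against its mates, Ta.28553.4.S1_x_at spanned 1.20 log2 units from SB69 to SB57 (limma adjusted p = 1.53e-06), and Ta.23807.4.S1_s_at 2.69 units from SB169 to SB62 (limma adjusted p = 0.000267). Ta.27657.11.S1_x_at spanned 6.41 units from SB109 to SB169 (limma adjusted p = 0.00925). Ta.7378.28.S1_x_at was highest against its mates in SB69 (limma adjusted p = 0.045), a call that was lost in 16 of 22 alternative fits. In Ta.23807, Ta.23807.8.S1_x_at lost its call in 12 of 22, Ta.23807.9.S1_x_at in 9, Ta.23807.6.A1_x_at in 8, Ta.23807.7.S1_x_at in 4 and Ta.23807.7.S1_at in 1 of 23. Ta.24114.7.A1_at lost it in 9 of 23. The call held in every alternative fit for 5 of the 15, Ta.28553.4.S1_x_at, Ta.28553.7.S1_at, Ta.28553.7.S1_x_at, Ta.23807.4.S1_s_at and Ta.27657.11.S1_x_at. A probe set that shifts in 1 line also moves the mean that its mates are set against, so calls within a cluster are not independent.

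Probe sets in multi-copy clusters were compared with those alone in their cluster by the share that differed among the 8 lines. Of the 13871 alone, 756 were called (5.45%), and of the 17397 with mates outside the 10 clusters, 1061 (6.10%). No test was made between these shares, since probe sets of the same cluster are not independent. By cluster size the share was 6.52% at 2 probe sets, 5.21% at 3, 6.20% at 4, 5.74% at 5, 9.16% at 6 to 7 and 6.19% at 8 or more, with no steady order. With all 16 arrays the 10 clusters, at 5.88%, lay within the range of the smaller ones, and 10 calls give this share little precision. This did not hold where arrays of SB3 were left out, alone or together with those of SB165. Where 1 array of SB3 was left out, the line rested on the other array alone. Where only 1 SB165 array was left out, the share in the 10 clusters stayed near that of all probe sets with mates. Without SB3 replicate 1, the share was 42.9% in the 10 clusters, 8.49% of those alone, 10.4% of those with mates outside the 10 clusters and 14.0% at 6 to 7. Without SB3 replicate 2, these shares were 15.3%, 5.58%, 6.58% and 10.7%, and without the 4 arrays of SB165 and SB3 they were 37.6%, 9.30%, 11.3% and 15.5%.

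The classes also differed in level, with a median of 4.87 for probe sets alone, 5.93 for those with mates outside the 10 clusters and 6.95 for the 170. Within quartiles of level, from the lowest to the highest, 0.989%, 3.78%, 7.33% and 8.65% of those alone were called, against 1.26%, 3.87%, 6.39% and 8.39% of those with mates. In the 170 the counts were 0 of 17, 1 of 18, 1 of 37 and 8 of 98. Without the 4 arrays of SB165 and SB3 they were 0, 10, 26 and 28. In that fit 1.72%, 5.90%, 12.2% and 15.4% of those alone were called. Of those with mates outside the 10 clusters, 2.17%, 7.03%, 11.4% and 15.9% were. With all 16 arrays, the order of the classes was turned among probe sets above the median level of the array. There 8.07% of those alone were called and 7.60% of all those with mates.

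Counted by cluster, larger clusters more often held at least 1 called probe set, and more tests are made in them. The share was 9.88% of the clusters with 2 probe sets, 15.1% with 5 and 20.2% with 6 to 7, and it was 5 of the 10 clusters described here. Without the 4 arrays of SB165 and SB3 these shares were 16.4%, 26.4% and 29.8%, and 8 of the 10 clusters held a call. A call was not usually shared by a whole cluster. Among the 307 clusters of 2 with a call, both probe sets were called in 98 (31.9%), and with all 16 arrays none of the 10 clusters had more than 3 called. Without SB3 replicate 1, 13 of 14 were called in Ta.27657, 26 of 38 in Ta.7378 and 24 of 39 in Ta.10329, although in none of the 10 clusters was every probe set called.

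**Figure D5:**
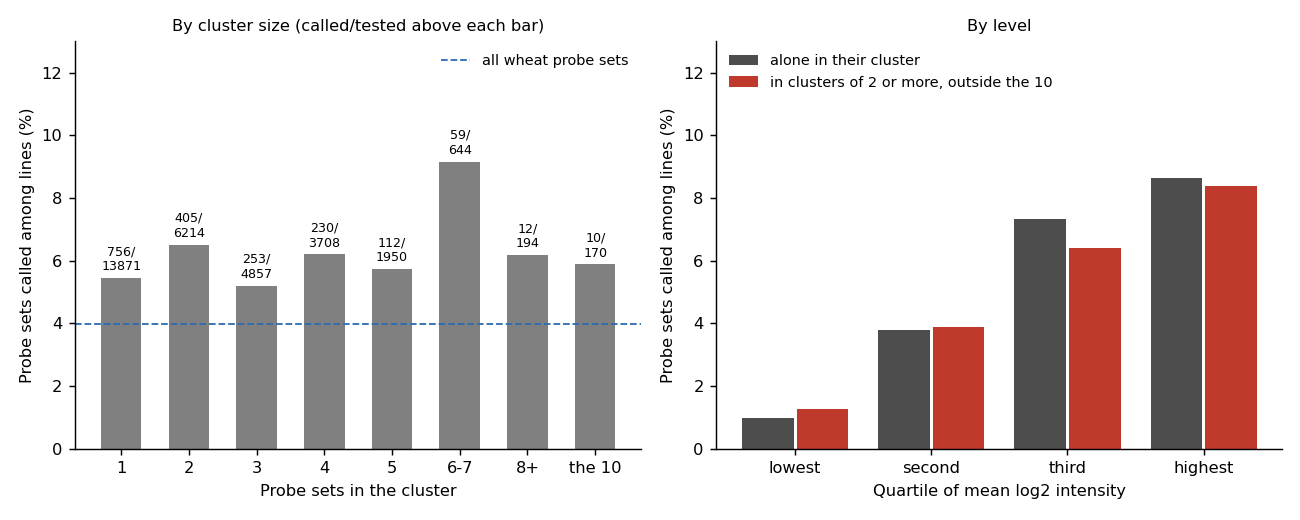
The y axes are the percent of probe sets called among the 8 lines. On the left it is given by number of probe sets in the cluster and for the 10 largest clusters, with the share of all wheat probe sets (3.99%) as a dashed line, and on the right by quartile of mean log2 intensity for probe sets alone in their cluster and those in clusters of 2 or more outside the 10. The bars rise with level in both classes and show no steady order with cluster size.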

How the data were processed

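The deposited intensity values, 1 per probe set and array on a linear scale, were used. GCOS and RMA are named for them in the submitters' processing notes, without versions or order. RMA evens out distributions between arrays and compresses differences of dim probe sets. Without probe-level data, sequence variants beneath probes and transcript abundance cannot be told apart. The 174 control and reporter rows of 61289 were left out, and values were set to at least 1 and taken to log2 (0 values lay under this floor).

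The comparison of lines used limma 3.58.1 (R 4.3.3), with 1 mean per line, eBayes with an intensity trend (6.77 prior and 8 residual degrees of freedom) and a moderated F-test. Benjamini-Hochberg adjustment ran over all 61115 wheat probe sets, at a threshold of 0.05. The same fit was made on deviations from cluster mates, in clusters of at least 3. In simulated data on 61115 probe sets, 48% of shifts of 1 log2 unit in 1 line and 91% of shifts of 2 units were called, with 8 of 147 calls on unshifted probe sets. The simulated noise was normal, independent between probe sets and equal in all lines. Real mates correlate and replicates of SB3 and SB165 lie further apart, so these shares need not hold for the members. On 11353 simulated deviations the shares were 47% and 90%, with 61 of 198 calls on unshifted probe sets, which are mates of shifted ones in part.

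Gene names came from the platform annotation through the RefSeq table of IWGSC CS RefSeq v2.1. Named probe sets were, per cluster, the brightest and those with the smallest p among lines and against mates, plus all called ones. The gene-paired ones of Ta.24114, Ta.659 and Ta.23807, others called against mates and those said so in the text lie outside this rule and were chosen after values were seen. The members, tests and alternatives were chosen with earlier results of these data known. Replicates are field replicates per the labels, and their number limits the precision. Same-numbered replicates of different lines did not deviate together in general (the correlation passed 0.1 for 14 of 28 line pairs and spanned -0.29 to 0.54), so numbers were not taken as pairs. Tissue identity was not checked against markers. Summaries and plots were made in Python 3.11.15 (matplotlib 3.10.9, numpy 2.4.6, scipy 1.17.1, pandas 2.3.3).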

Additional observations from a re-analysis of the deposited data

How the results depend on the processing

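Among 16 arrays left out in turn, the calls among all wheat probe sets ranged from 1711 to 3976, among the 170 members from 7 to 73 (4.12% to 42.9%), among probe sets alone in their cluster from 3.92% to 8.49%, among those with mates from 4.21% to 10.7%, and against mates from 7 to 61. The median r of within-cluster pairs ranged from 0.44 to 0.60. With the replicate block (the field replicate number as a term), 6.45% of probe sets alone, 7.53% of those with mates and 25 members against mates were called. Centring on array medians gave 4.84% and 5.40%, the filter on dim probe sets 8.07% and 7.60%, and no intensity trend 5.08% and 5.57%, with 9 members against mates. Without _x_at, _s_at and _a_at probe sets, 3 members were called among lines and 6 against mates. At an adjusted p under 0.01, 1253 of all, 5 members (2.94%), 2.90% of those alone, 3.06% of those with mates and 7 members against mates were called. Quantile normalization, the median of mates in place of their mean, and ranking clusters by subclusters (Ta.27457 in place of Ta.3523) kept counts within 1.5 times. The median r of within-cluster pairs was 0.47 by Spearman's rho, 0.65 over line means, 0.64 over replicate differences and 0.78 without _x_at, _s_at and _a_at probe sets.

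The next settings were chosen after the data were seen. Without all SB165 and SB3 arrays, 4327 of all, 64 members (37.6%), 9.30% of those alone, 11.6% of those with mates and 70 members against mates were called. Without replicate 2 of both lines, the values were 3714, 50 (29.4%), 8.08%, 9.84% and 59. Without the 4 high arrays the median r of within-cluster pairs was 0.31. The cause of these changes was not tested. Direction was followed for the brightest probe set of each cluster and for those with the smallest p among lines and against mates. None of the called ones among these changed direction under the alternatives of the paragraph before. It was not followed for the other called probe sets. Ta.3523.1.S1_s_at, not called, turned from 0.11 to -0.0033 log2 units (SB165 over SB169) without SB169 replicate 2 (limma adjusted p = 0.995, and 0.893 to 0.998 over the arrays left out in turn). With 2 arrays per line, single lines rest on few values, and dim probe sets lie where RMA compresses differences.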

Other observations

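Histone probe sets outside the 10 clusters were looked up by gene synonym after the values of Ta.7378 and Ta.27657 had been seen, and 5 were found. Ta.27192.1.S1_at, paired with the H2A gene H2A-3, read 4.96 and 7.70 in SB3, 4.69 and 6.43 in SB165, 5.82 and 7.15 in SB10 and 5.72 and 5.72 in SB109, against 4.18 to 4.86 on the 8 arrays of the other lines (limma adjusted p = 0.267). It correlated at r = 0.96 with the mean of Ta.7378 over the 16 arrays, whereas Ta.27192.1.S1_s_at, paired with the same gene, correlated at 0.45 and lay between 4.93 and 5.47. Ta.29542.1.S1_x_at, paired with H2A-2, was dim at a mean of 2.98 and was higher by 2.20 log2 units on replicate 2 of SB3 than on replicate 1. The H2B gene wcH2B-6 was represented by Ta.27708.1.S1_at and Ta.27708.1.S1_x_at, which were higher there by 0.66 and 0.90 and correlated with the Ta.7378 mean at 0.84 and 0.87. None of the 5 was called among the 8 lines by limma.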
